A study of Homo sapiens with 8 samples.

Results

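Ribosome footprints of RNF14 knockout HAP1 cells were compared with those of wild-type HAP1 cells directly after irradiation, at 0 min of recovery. The comparison covers the genes, each represented by 1 transcript, whose mean footprint level over the 4 libraries at 0 min was 1 RPKM or more. RPKM is the number of reads scaled to the length of the transcript and to the total of the library. These were 11857 of the 19580 genes in the deposited table. HAP1 cells are human, grow attached, carry close to a single set of chromosomes and descend from a leukaemia line. Wild-type and knockout cells alike had been given 5 uM 4-thiouridine (4SU) over 18 h and 6 kJ/m2 of UVA, so no group was untreated. Each genotype had 2 biological replicates at 0 min and 2 more after 30 min of recovery, 8 libraries in all. The labels name no clone and no batch for the knockout.

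4SU is a uridine analogue that cells build into new RNA, and UVA light then bonds it to proteins in contact with that RNA. Such a bond on an mRNA blocks the ribosome that meets it. RNF14 is an E3 ubiquitin ligase that works with the ribosome-bound sensor GCN1 and marks proteins stuck at or in front of stalled ribosomes for removal. The comparison at 0 min asks how the footprints of cells with and without this ligase differed before any time for recovery. A footprint level depends on the amount of the mRNA as well as on how many ribosomes it carries, and the 2 cannot be told apart from footprints alone.

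The gene identifiers in the table are Ensembl numbers for which the files give no names, and the reference table of genes holds 0 such numbers. Gene roles, chromosomes, sequences, cell type markers and the footprints of RNF14 itself are therefore not given. Transcripts are identified by their length, and 4 of them also by identifier.

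The 4 libraries at 0 min were of similar depth but not of equal likeness. RPKM times length came out as whole reads, within a tolerance of 0.05, for 100% of nonzero values, and by this count wild type had 890647 and 971695 reads and the knockout 1241975 and 778683 reads. The median transcript compared had 154 reads over the 4 libraries, and 1358 of the 11857 had under 30. The knockout replicates correlated most closely, with a Pearson's r of 0.97 across log2(RPKM + 1) of the 11857 transcripts, and the wild-type replicates with 0.95. Wild type replicate 2 was nearly as close to knockout replicate 1, with r = 0.95, as to its own replicate. Wild type replicate 1 stood apart from both knockout libraries, with r = 0.93 and 0.92. Among the 7046 transcripts at 10 RPKM or more, 215 differed by over 1 on the log2 scale between the wild-type replicates and 100 between the knockout replicates. Between genotypes the number was 718 and 664 for wild type replicate 1 against knockout replicates 1 and 2, and 255 and 301 for wild type replicate 2. Results that move with wild type replicate 1 are given with and without it.

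Most transcripts had similar levels in both genotypes. The knockout minus wild-type difference on the log2(RPKM + 1) scale had a median of -0.08 and quartiles of -0.43 and 0.25, and 68.1% of transcripts lay within 0.5 of zero. A difference above 1 was seen for 278 transcripts and below -1 for 463. Both knockout libraries lay above both wild-type libraries for 2560 transcripts, 21.6% of those tested, and below both for 3514, or 29.6%. Of the 6 ways to arrange 2 against 2 libraries, 1 gives each of these orders. By the limma-trend test described below, 0.152% and 0.0422% of transcripts passed as higher and lower. Some transcripts reached the mean of 1 RPKM through 1 genotype only. These were 204 whose wild-type mean was under 1 RPKM and 282 whose knockout mean was, and they had to differ to be included. The lowest mean inside the limit was 1.0002 RPKM and the highest outside it 0.998 RPKM.

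Between the genotypes 23 of 11857 transcripts, 0.194%, passed a threshold of 0.05 on the Benjamini-Hochberg adjusted p of a two-sided limma-trend fit, which took log2(RPKM + 1) of all 8 libraries. Of these, 18 were higher in the knockout, with a median log2 difference of 2.50, and 5 were lower, with a median of -3.03. Of the 18, the transcripts of 1028, 1413, 2405 and 2644 nt had reached the mean of 1 RPKM through the knockout alone, and of the 5 those of 1491 and 3282 nt through wild type alone. These 6 had to differ to be tested, so their calls do not support a difference beyond the values themselves. Before adjustment, 1637 transcripts had a p under 0.05. A weighted model of the recovered reads (limma voom, which gives deeper values more weight) called 837 transcripts, 7.06%, including all 23. The number called by limma-trend rested on single libraries. It was 1 without wild type replicate 1, 5 without wild type replicate 2 and 2 without either knockout replicate, and it was 52 and 47 without knockout replicate 1 or 2 at 30 min and 13 without either wild-type library at 30 min. Where 1 library is left at 0 min, that library is taken to vary like the other groups.

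**Figure D1:**
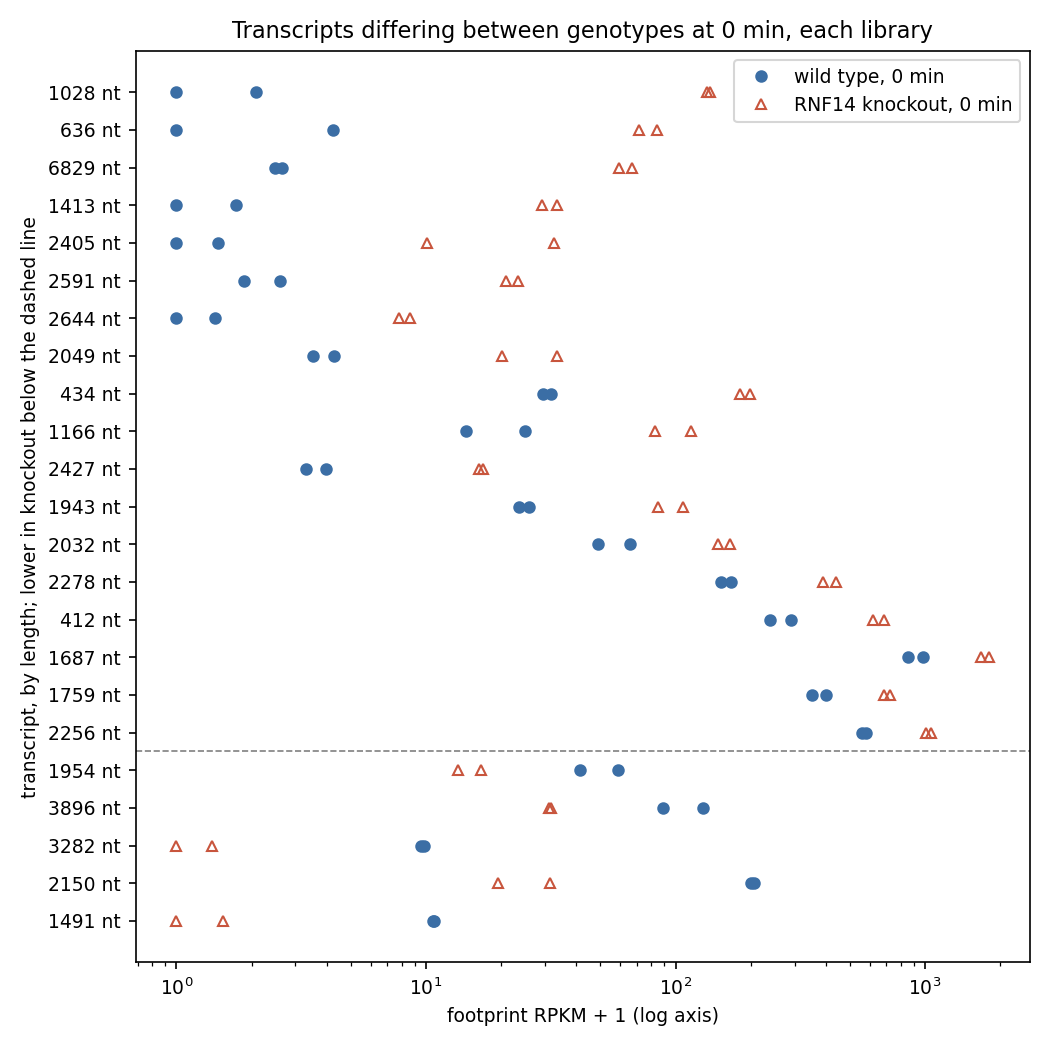
RPKM + 1 on a log axis for each of the 23 transcripts that differed at 0 min, labelled by length in nt, with wild-type libraries as blue circles and knockout libraries as open red triangles. The 18 transcripts above the dashed line had both knockout libraries above both wild-type libraries, and the 5 below it had both knockout libraries lower.

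The largest differences belonged to transcripts almost without footprints in wild type and plainly read in the knockout. First by size was ENSG00000185222, of 1028 nt, which was included through its knockout level alone, at 1.09 and 0 RPKM in the wild-type libraries and 136 and 132 RPKM in the knockout libraries. It rested on 1 read in wild-type and 280 in knockout cells, so its share of reads was 258-fold larger (exact Clopper-Pearson 95% interval for counting error, 45.9 to 10229). Its log2 difference was 6.55 (limma, SE 0.61, adjusted p = 0.00234). Both knockout values lay far above both wild-type values, and the call was kept in 16 of 21 other settings, the lost ones being a pseudocount of 0.1 and the fits without any 1 of the 4 libraries at 0 min.

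ENSG00000204262, of 6829 nt, was the longest and the best covered of this group. It stood at 1.48 and 1.66 RPKM in wild-type cells and at 65.7 and 58.3 RPKM in knockout cells, on 20 and 867 reads. Its read share was 39.95 times that of wild type (25.7 to 65.7), and the log2 difference was 4.61 (limma, SE 0.28, adjusted p = 0.000112). It was the only 1 of the 23 called in all 21 other settings. In those settings voom was fitted to all 8 libraries only, and each fit without 1 library was by limma-trend.

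The 636 nt transcript measured 0 and 3.24 RPKM in wild-type cells and 83.6 and 70.7 RPKM in knockout cells, on 2 and 101 reads. Its log2 difference was 5.24 (limma, SE 0.57, adjusted p = 0.00559). The 1413 nt transcript measured 0 and 0.728 RPKM in wild-type cells and 32.5 and 28.2 RPKM in knockout cells, on 1 and 88 reads. In both cases the knockout replicates lay close together and the wild-type level rested on at most 2 reads, so that the interval of the ratio is wide, from 12.6 to 390 for the first and from 14.2 to 3239 for the second. The 2405 nt transcript measured 0.467 and 0 RPKM in wild-type cells and 31.5 and 9.08 RPKM in knockout cells. Its knockout replicates differed by more than those of the other transcripts in this group, and its call (log2 difference 3.90, SE 0.63, limma adjusted p = 0.0450) was lost in 13 of 21 other settings. A transcript of 2644 nt had 1 read in wild-type and 39 in knockout cells, at 7.61 and 6.80 RPKM there. Its call (limma adjusted p = 0.0450) was lost in 12 of 20 settings.

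Other transcripts had wild-type means from 1.23 to 29.6 RPKM and were read several times more in the knockout. The 2591 nt transcript measured 0.867 and 1.59 RPKM in wild-type cells and 19.9 and 22.3 RPKM in knockout cells, making its read share 16.7-fold higher (7.45 to 46.6). The 2049 nt transcript measured 3.29 and 2.51 RPKM and 19.3 and 32.6 RPKM. The 2427 nt transcript measured 2.31 and 2.97 RPKM and 15.9 and 15.3 RPKM. The wild-type replicates of these 3 differed by under 1 RPKM, while the knockout replicates of the 2049 nt transcript were further apart. The 434 nt transcript measured 28.5 and 30.8 RPKM in wild-type cells and 180 and 198 RPKM in knockout cells, which put the log2 difference at 2.63 (limma, SE 0.34, adjusted p = 0.0106). The called 1166 nt transcript measured 13.5 and 23.8 RPKM and 114 and 81.5 RPKM, which put the log2 difference at 2.36 (limma, SE 0.29, adjusted p = 0.00991). The 1943 nt transcript measured 22.5 and 24.9 RPKM and 106 and 83.9 RPKM, which put the log2 difference at 1.95 (limma, SE 0.23, adjusted p = 0.00705). In none of these did the groups overlap.

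The remaining called transcripts were well read in both genotypes. The 2032 nt transcript measured 48.1 and 64.8 RPKM in wild-type cells and 164 and 147 RPKM in knockout cells. The 2278 nt transcript measured 166 and 152 RPKM and 437 and 387 RPKM, on 673 and 1923 reads, making its read share 2.63-fold higher (2.41 to 2.88). The 412 nt transcript measured 237 and 290 RPKM and 616 and 683 RPKM. Their log2 differences were 1.46, 1.37 and 1.30 (SE 0.20, 0.15 and 0.14, limma adjusted p = 0.0167, 0.00559 and 0.00559). The 3 smallest called differences, singled out here after their values were seen, belonged to the most abundant called transcripts, of 1687, 1759 and 2256 nt. They stood at 919 ± 87.9, 375 ± 33.5 and 569 ± 15.5 RPKM in wild-type cells and at 1742 ± 87.2, 701 ± 25.6 and 1033 ± 32.9 RPKM in knockout cells (SD, n = 2 each). Their log2 differences of 0.93, 0.91 and 0.86 were small beside those above and lay outside the spread of the replicates, on 2895, 1231 and 2388 reads in wild type alone. Each of the 3 calls was lost in 10 or 11 of 21 other settings.

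Of the 5 transcripts that were lower in the knockout, 3 were nearly lost there or strongly reduced. ENSG00000082482, of 1491 nt, included through its wild-type level alone, was at 9.79 and 9.66 RPKM in wild-type cells and at 0.540 and 0 RPKM in knockout cells, on 27 reads and 1 read. The read share was 29.3-fold lower (4.83 to 1199), and its log2 difference was -3.11 (limma, SE 0.39, adjusted p = 0.00991). The 3282 nt transcript measured 8.55 and 8.78 RPKM in wild-type cells and 0 and 0.391 RPKM in knockout cells, on 53 reads and 1 read, making its read share 57.5-fold lower (9.88 to 2314). The wild-type replicates of both transcripts lay close together, yet the second call (limma adjusted p = 0.0425) was lost in 12 of 20 settings. ENSG00000181322, of 2150 nt, was well covered in both genotypes, at 199 and 205 RPKM in wild-type cells and 18.4 and 30.5 RPKM in knockout cells, on 811 and 100 reads. Its log2 difference was -3.04 (limma, SE 0.27, adjusted p = 0.00234), and its call was kept in 19 of 21 other settings.

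The other two were reduced to a lesser degree. The 3896 nt transcript measured 128 and 88.0 RPKM in wild-type cells and 30.8 and 30.0 RPKM in knockout cells, making its read share 3.51-fold lower (3.03 to 4.07). The 1954 nt transcript measured 58.04 and 40.6 RPKM and 15.7 and 12.5 RPKM, making its read share 3.39-fold lower (2.50 to 4.65). In both, wild type replicate 1 was the highest of the 4 libraries, and both wild-type libraries lay above both knockout libraries. Their calls (limma adjusted p = 0.0422 and 0.0367) were lost in 12 and 11 of 21 other settings. No transcript was called lower by limma-trend without wild type replicate 1 or without wild type replicate 2, where 864 and 1878 transcripts had an unadjusted p under 0.05 in either direction and voom called 296 and 1502 lower.

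**Figure D2:**
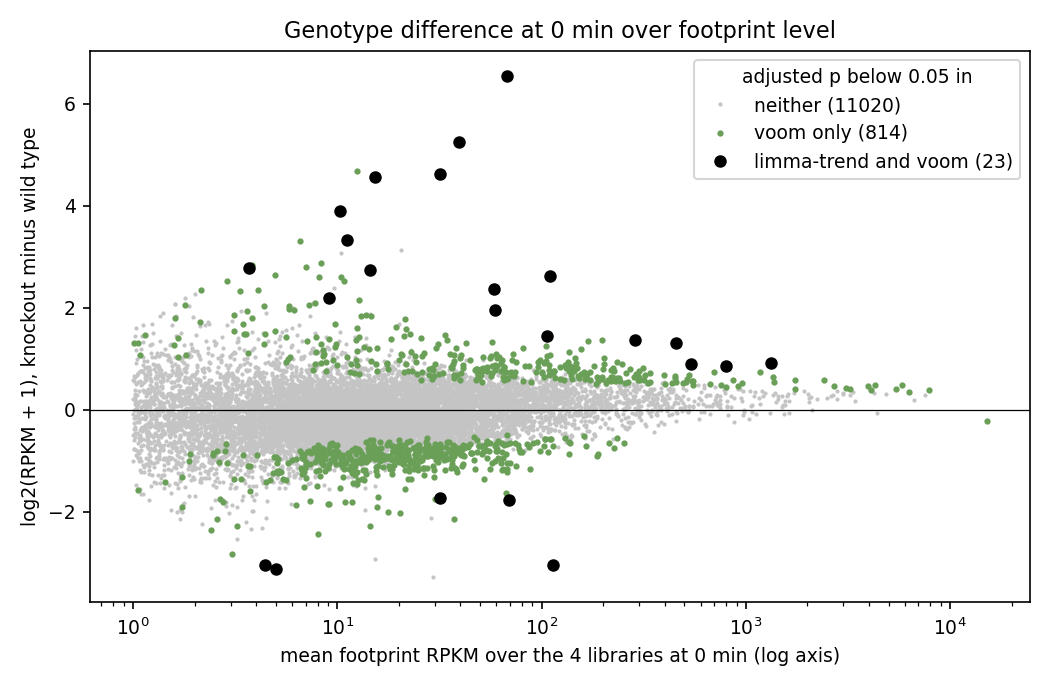
Knockout minus wild-type difference in log2(RPKM + 1) at 0 min (vertical) against the mean RPKM over the 4 libraries (horizontal, log axis), 1 point per transcript. Black points are the 23 transcripts called by limma-trend and voom, green points those called by voom alone and grey points the rest. The green points tend to lie below zero at middle levels and above zero at the highest levels.

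The levels of the 4 libraries at 30 min do not enter the differences at 0 min, but these libraries share in the estimate of the spread and so in which transcripts were called. Of the 23 transcripts, 20 had a difference of the same direction at 30 min, 16 of the 18 higher ones and 4 of the 5 lower ones. Over all tested transcripts the direction was shared by 46.3%. The limma-trend test at 30 min, which called 0.127% of transcripts, 0.0843% higher and 0.0422% lower, called 9 of the 23, 7 higher and 2 lower. Without wild type replicate 1 or 2 at 30 min it called 4 and 5 of them. ENSG00000185222 was at 0 and 3.77 RPKM in wild-type cells and 219 and 176 RPKM in knockout cells at 30 min, which put the log2 difference at 6.50 (limma, SE 0.61, adjusted p = 0.00189). ENSG00000204262 was at 2.24 and 2.84 RPKM and at 39.8 and 36.03 RPKM, which put the log2 difference at 3.46 (limma, SE 0.28, adjusted p = 0.000632). The 434 nt transcript was at 3.21 and 8.92 RPKM and at 121 and 125 RPKM, which put the log2 difference at 4.26 (limma, SE 0.34, adjusted p = 0.000632). Its genotype difference was thus larger in value at 30 min, as the wild-type mean went from 29.6 to 6.07 RPKM and the knockout mean from 189 to 123 RPKM. The wild-type level at 30 min rested on 3 reads. The change of its genotype difference between the times did not pass the threshold (interaction adjusted p = 0.250 by limma-trend and 0.390 by voom). In 21 of the 23 the difference was smaller at 30 min, but the 23 had been chosen by their size at 0 min, which alone makes a smaller value in other samples likely, so nothing is read from this count.

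**Figure D3:**
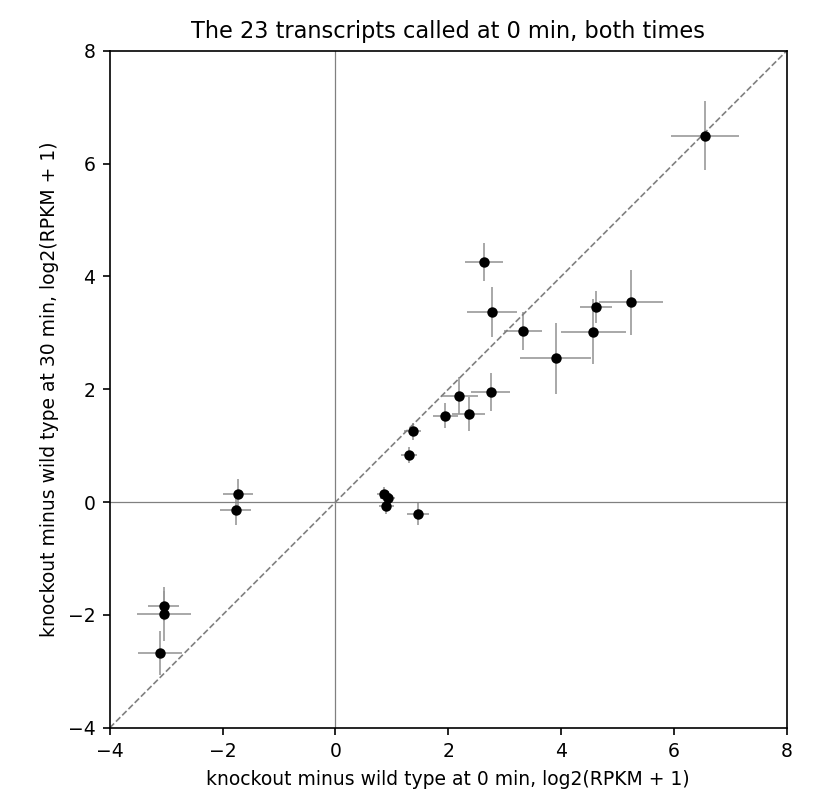
Knockout minus wild-type difference in log2(RPKM + 1) at 0 min (horizontal) and 30 min (vertical) for the 23 transcripts called at 0 min, with bars of 1 SE from the limma fit and a dashed line of equality. Points in the upper right and lower left have the same direction at both times, 20 of 23, and a group of 6 with smaller differences lies near zero at 30 min.

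For 6 of the 23 the genotypes were close to each other after 30 min. The 1687 nt transcript went to 2095 ± 95.3 RPKM in wild-type cells and 2199 ± 286 RPKM in knockout cells, and the 1759 nt transcript to 713 ± 41.3 and 678 ± 58.1 RPKM (SD, n = 2 each). The 2256 nt transcript went to 1202 ± 29.4 and 1336 ± 93.1 RPKM, and the 2032 nt transcript to 103 ± 4.51 and 88.4 ± 6.84 RPKM (SD, n = 2 each). Among the lower ones the 3896 nt transcript went to 61.7 ± 18.9 and 55.7 ± 13.1 RPKM and the 1954 nt transcript to 25.8 ± 4.19 and 28.4 ± 2.31 RPKM (SD, n = 2 each). In the 4 higher transcripts the wild-type mean had risen from 0 to 30 min. The knockout mean had fallen for the 2032 nt transcript, from 155 to 88.4 RPKM, and for the 1759 nt one, from 701 to 678 RPKM. It had risen for those of 1687 and 2256 nt. In the 2 lower transcripts the wild-type mean had fallen and the knockout mean had risen. Their log2 differences at 30 min ran from -0.21 to 0.15. By limma-trend the change of the genotype difference between 0 and 30 min passed the threshold for 0 of the 23, with a lowest adjusted p of 0.211 and 10 at an unadjusted p below 0.05, while by voom it passed for exactly these 6, with adjusted p of 0.00512, 0.00512, 0.00611, 0.00769, 0.0277 and 0.0302. Over all transcripts this change was called for 0.00843% by limma-trend, with the 1 call being a knockout that gained on wild type, and for 1.06% by voom, 0.827% with a gain of the knockout and 0.236% with a loss. The 23 had been chosen by their difference at 0 min, which enters this change, and the 6 were picked by their values at 30 min. The adjusted p of the 6 therefore do not support a change beyond the values themselves.

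Transcripts near absence in 1 genotype were counted over the whole table by reads alone, with limits chosen after the values were seen. With at most 2 reads in wild type and at least 20 in the knockout at 0 min there were 12 transcripts, of which 11 reached the mean of 1 RPKM and 5 were called by limma-trend, against a background of 0.152%. With at most 2 reads in the knockout and at least 20 in wild type there were 6, of which 5 reached that mean and 2 were called, against 0.0422%. The values at 0 min chose these transcripts, so how many were called at 0 min was set by that choice and supports nothing further. Of the called ones, those of 1028, 1413, 2405, 2644, 1491 and 3282 nt had also been included through 1 genotype alone. At 30 min the 12 together had 25 reads in wild type, out of 1234238, and 336 in the knockout, out of 783173, and each of the 12 had the larger read share in the knockout. The 6 had 109 reads in wild-type and 9 in knockout cells, and each had the larger share in wild type. A transcript of 638 nt was the only 1 of the 12 with 0 reads in both wild-type libraries, at 27.8 and 22.1 RPKM in knockout cells. Set against the limit of 3 reads that a count of 0 allows over the group, its read share was at least 10.1-fold higher, with the 33 knockout reads taken as they are and without their own counting error. Its limma adjusted p was 0.174, and at 30 min it was listed at 0 in both wild-type libraries and in knockout replicate 1, and at 41.0 RPKM in knockout replicate 2.

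The voom model extended the comparison to smaller differences. It called 341 transcripts higher in the knockout, 2.88% of those tested, and 496 lower, 4.18%. The higher ones had a median length of 2029 nt and a median level of 57.3 RPKM, and the lower ones of 4110 nt and 19.6 RPKM, against 2635 nt and 13.4 RPKM for all transcripts. With quantile normalization inside voom the split was 295 higher and 274 lower. Leaving out wild type replicate 1 gave 217 and 296, leaving out wild type replicate 2 gave 623 and 1502, and leaving out knockout replicates 1 or 2 gave 60 and 28 or 140 and 113. More transcripts were thus lower than higher with each wild-type library alone, and more were higher with each knockout library alone.

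Among the transcripts called by voom alone, with at least 30 reads and no overlap of the genotypes, the 12 with the largest log2 differences in each direction had low levels in the lower genotype. The 12 higher ones were at 0 to 4.03 RPKM in wild-type cells and 5.63 to 24.95 RPKM in knockout cells, with log2 differences from 2.16 to 4.69 and limma adjusted p from 0.0850 to 0.174. Those of 638, 1166, 2516, 3067, 3845 and 4640 nt had reached the mean of 1 RPKM through the knockout alone. They had to differ to be tested, so their calls by voom do not support a difference beyond the values themselves. All 12 higher ones had a positive difference at 30 min, though none passed limma's threshold there. One of 2595 nt was at 4.33 and 1.19 RPKM in wild-type cells and at 19.2 and 18.3 RPKM in knockout cells, on 13 and 99 reads. One of 4640 nt, included through its knockout level alone, was at 0.484 and 0.887 RPKM and at 7.29 and 7.75 RPKM. As a ratio, the knockout replicates of both lay closer together than the wild-type replicates. The 12 lower ones were at 3.30 to 61.3 RPKM in wild-type cells and 0.0972 to 12.9 RPKM in knockout cells, and 10 of the 12 were lower at 30 min too. Those of 2784, 4140 and 7455 nt had reached the mean of 1 RPKM through wild type alone and likewise had to differ to be tested. Among the 12 lower ones the best covered, of 5400 nt, was at 29.5 and 19.6 RPKM in wild-type cells and 4.62 and 3.81 RPKM in knockout cells, making its read share 5.66-fold lower (4.13 to 7.90). At 30 min it was at 11.9 and 11.5 RPKM in wild-type cells and at 5.14 and 14.5 RPKM in knockout cells, where the groups overlapped.

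The direction at 30 min of the transcripts called by voom at 0 min was counted by the size of their difference, as a description. Of 48 transcripts higher by 2 or more on the log2 scale, 46 were higher at 30 min as well, or 95.8%, where 53.2% of all tested transcripts were higher. Of 22 that were lower by 2 or more, 19 were lower at 30 min, or 86.4%, where 46.8% of all tested transcripts were lower. For differences from 1 to 2 the shares were 74.1% of 81 higher and 41.5% of 200 lower transcripts, the latter below the share of all transcripts. For differences under 1 they were 46.2% of 212 and 33.2% of 274, both below the share of all transcripts. Without wild type replicate 1 the shares were 96.4% of 28 and 93.3% of 15 for the largest differences and 50.0% of 148 and 23.6% of 191 for the smallest. These shares were not tested against each other or against those of all transcripts. Voom itself called 0.177% of transcripts at 30 min, 0.169% higher and 0.00843% lower, and 13 transcripts at both times, all in the same direction. Sequencing was shallower at 30 min, with 717828 and 516410 reads for the wild-type replicates and 323946 and 459227 for the knockout replicates. Across all 11857 transcripts, which are not independent, the differences at both times had a Pearson's r of 0.07 and a Spearman's rho of -0.04. How far the lower depth reduced the share called, from 7.06% at 0 min, or weakened these correlations was not tested.

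**Figure D4:**
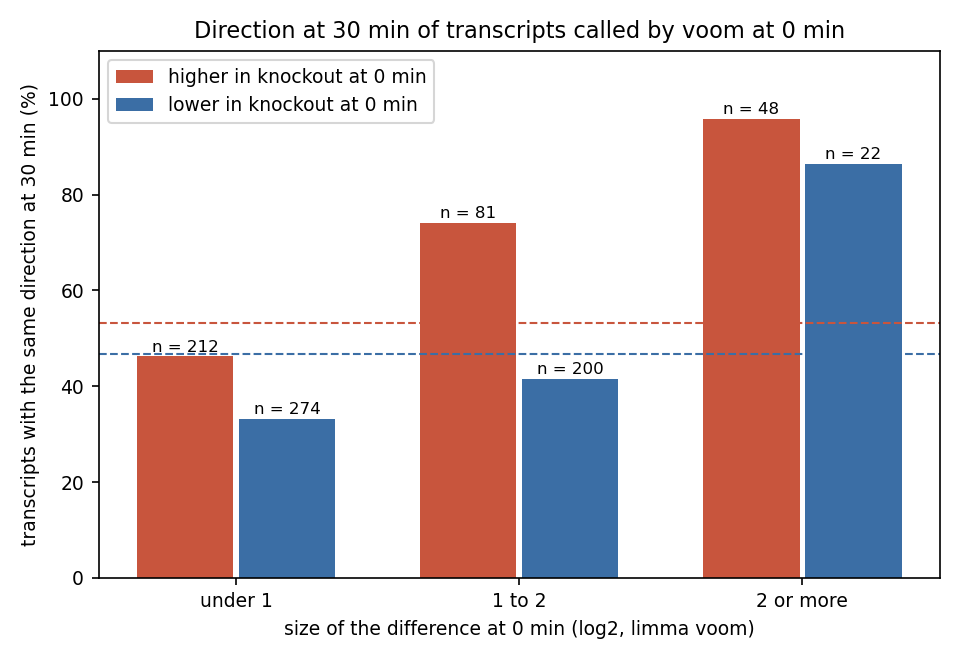
Share of transcripts called by voom at 0 min that had the same direction at 30 min (vertical, percent), by the size of the log2 difference at 0 min, for those higher (red) and lower (blue) in the knockout, with n above each bar. Dashed lines are the shares of all tested transcripts with that direction at 30 min, 53.2% and 46.8%. The bars for differences of 2 or more stand at 95.8% and 86.4%. Those under 1 lie below their dashed lines, and so does the blue bar for 1 to 2.

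Over all transcripts the difference changed with transcript length, and by how much depended on wild type replicate 1. The median log2 difference at 0 min was 0.17 for the 321 transcripts of up to 600 nt, 0.12 for the 1315 above that and up to 1200 nt, -0.02 for the 3683 up to 2400 nt, -0.13 for the 4283 up to 4800 nt and -0.21 for the 2255 over 4800 nt. At 30 min the same classes had medians of -0.13, -0.11, 0.00, 0.05 and 0.04, so the order was not the same. Voom called 4.98% of the shortest class higher and 0.623% lower, and 2.17% of the longest class higher and 8.34% lower. Within a band of 10 to 30 RPKM the medians at 0 min went from 0.10 in the shortest class to -0.24 in the longest, and within 30 to 100 RPKM from 0.02 to -0.11, with 0.11 in the second class. The spread over length was smaller without wild type replicate 1, at 0.03, 0.07, 0.02, -0.05 and -0.11, and after quantile normalization, at -0.01, 0.04, 0.03, -0.02 and -0.07, where the shortest class was no longer above zero. Without wild type replicate 2 the classes ran from 0.26 to -0.30. With TPM the second class was at -0.01 and the longest at -0.34, as that scaling moved the median of all transcripts from -0.08 to -0.20. With median centring, where the median of all transcripts was 0.06, the classes ran from 0.31 to -0.08.

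Set against the mean of the 4 libraries, wild type replicate 1 was lowest for short and highest for long transcripts. Its median deviation went from -0.18 in the shortest class to 0.21 in the longest. Wild type replicate 2 stayed between -0.03 and 0.03 in every class, and the knockout replicates went from 0.09 and 0.09 to -0.12 and -0.08. Both wild-type libraries lay on the same side of both knockout libraries at both ends of the length range, but the difference between the wild-type replicates was larger than that between wild type replicate 2 and the knockout. As shares of all reads, transcripts of up to 600 nt took 6.77% and 7.86% in wild type and 8.77% and 8.65% in the knockout, and those over 4800 nt took 19.9% and 17.7% in wild type and 16.3% and 16.5% in the knockout. The groups did not overlap, and an exact two-sided permutation test gave p = 0.333 for each, the smallest that 6 arrangements of 2 against 2 libraries allow, so this test cannot reach 0.05. Over the 10 shares tested the adjusted value was 0.370. The 10 included the shares of the transcripts called higher and called lower, whose separation was set by the calls at 0 min.

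**Figure D5:**
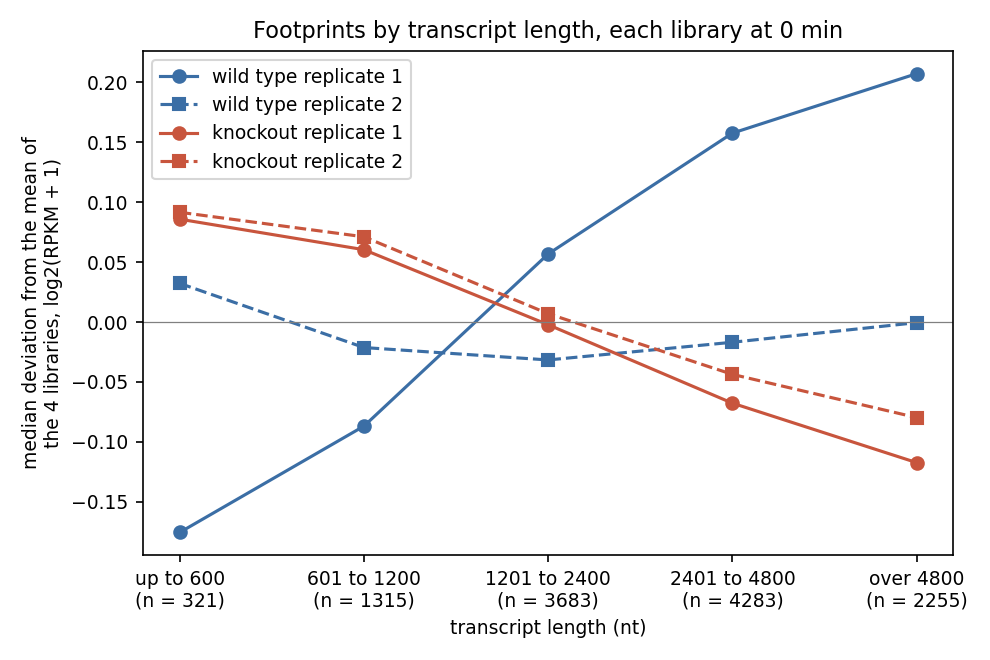
Median deviation of each library at 0 min from the mean of the 4 libraries, in log2(RPKM + 1), for 5 classes of transcript length in nt, with wild type in blue, the knockout in red, circles for replicate 1 and squares for replicate 2. Wild type replicate 1 runs from -0.18 to 0.21, wild type replicate 2 stays near zero and both knockout replicates slope downwards.

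Footprint level showed a related order, and level and length are linked, since the most abundant transcripts were short. The median log2 difference at 0 min was -0.12 for transcripts of 1 to 3 RPKM, -0.19 for 3 to 10 RPKM, -0.13 for 10 to 30 RPKM, 0.01 for 30 to 100 RPKM, 0.19 for 100 to 300 RPKM and 0.24 for the 283 transcripts over 300 RPKM. At 30 min the medians of these classes were 0.04, 0.06, 0.03, -0.01, -0.10 and -0.16. Of the 283 most abundant transcripts voom called 48 higher in the knockout at 0 min and 1 lower. The median of that class was 0.10 without wild type replicate 1, 0.11 with TPM, 0.37 with median centring and 0.00 after quantile normalization.

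The 5 most read transcripts illustrate this range. A transcript of 4298 nt, which alone took 6.77% and 7.22% of reads in wild type and 5.89% and 6.20% in the knockout, had a log2 difference at 0 min of -0.21 (limma, SE 0.11, adjusted p = 0.434, and 0.0182 with voom). The 511 nt transcript measured 6251 and 7303 RPKM in wild-type cells and 9233 and 8595 RPKM in knockout cells. The transcripts of 731 and 787 nt were at 3577 ± 234 and 3317 ± 180 RPKM in wild-type cells and at 4993 ± 42.1 and 4565 ± 33.4 RPKM in knockout cells (SD, n = 2 each). These 3 shorter transcripts had log2 differences of 0.40, 0.48 and 0.46 that did not pass the limma threshold (adjusted p = 0.186, 0.130 and 0.144) and passed that of voom (adjusted p = 0.00945, 0.00335 and 0.00463). The fifth, of 557 nt, was at 5594 and 6783 RPKM in wild-type cells and 7163 and 7002 RPKM in knockout cells and passed neither (limma adjusted p = 0.515, voom adjusted p = 0.242). In each library its 1000 best read transcripts held 44.8% and 49.5% of reads in wild type and 50.8% and 50.0% in the knockout, and here too wild type replicate 2 lay nearer to the knockout than to wild type replicate 1.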

How the data were processed

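Footprints were made, per the labels' protocols, from lysates with cycloheximide digested with RNase I, with ribosomes pelleted through sucrose. Per the submitters' processing notes, cutadapt, the aligner STAR (2.7.10a) and build hg38 were used. How reads were filtered, which region was counted and how transcripts were chosen is not stated there. In the table the authors deposited, values are RPKM, 1 value per transcript and library, with the transcript length. RPKM is relative to the library total, so a gain of abundant transcripts lowers all others. Columns were matched to samples by genotype, time and replicate; the column of knockout replicate 1 at 30 min has a suffix that no label explains.

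Reads were recovered as RPKM times length in steps of 1 read (tolerance 0.05). PCR duplicates were not marked. Genotypes were compared by limma-trend in limma 3.58.1 under R 4.3.3, run on log2(RPKM + 1) of 11857 transcripts and fitted as 4 group means over 8 libraries with 4 residual degrees of freedom, no replicate block, Benjamini-Hochberg over all transcripts and a threshold of 0.05. Differences on this scale understate those of low transcripts. With 2 libraries a group, p-values measure the spread between these samples. The test was checked on simulated data, where limma-trend missed the smallest changes put in. The simulated spread between replicates was set and not taken from these libraries, so the error rates here remain unknown. As RPKM is no count, limma voom on the recovered reads served as an alternative; others were the pseudocount, filter, scaling, prior, block, only the 0 min libraries, and each library left out with the tested transcripts kept. Named transcripts were planned as the called ones (at most 15 in each direction), up to 12 in each direction called by voom alone with at least 30 reads and no overlap, and the 5 most read. The called ones beyond that limit were named as well, after their values were seen. The comparison, lists and tests were chosen with earlier results of these data known. The 27 gene lists, the marker lists and the chromosome comparison could not be run without gene names. Python 3.11.15, numpy 2.4.6, pandas 2.3.3, scipy 1.17.1 and matplotlib 3.10.9 were used.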

Additional observations from a re-analysis of the deposited data

Results flagged for a closer look

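The genotype difference of 1 transcript, of 51 nt, differed between 0 and 30 min (limma-trend interaction, adjusted p = 0.00045), by 6.76 on the log2 scale. At 0 min both genotypes had 3 reads of it, and at 30 min wild type had 0 and knockout cells had 4. With voom the adjusted p was 0.355.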

How the results depend on the processing

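The 23 calls at 0 min became 9 with a pseudocount of 0.1, 13 with no filter, 5 without a trend in the prior, 64 when the fit held just the 0 min libraries, 837 with voom and 52 with at least 10 reads a library on average, a filter chosen after seeing the data. Leaving out 1 library gave from 1 to 52. The other settings gave from 16 to 28. With the replicate number as a block 18 were called, 16 of them among the 23. Same-numbered libraries at 0 min had a correlation of deviations of -0.07. With few replicates a group and counting error in many transcripts, this value cannot show whether same-numbered libraries shared any handling. Over 479 results of the 23 transcripts under these settings, 314 stayed past the threshold, 165 fell below it and 0 changed direction. Of the most read transcripts, the 557 nt one went to -0.047 after quantile normalization. The calls of voom became 553 with only the libraries at 0 min, 569 with quantile normalization and from 88 to 2125 without 1 library at 0 min. These voom settings and the fits by length without 1 library were chosen after seeing the data. For transcripts with few reads the exact intervals bound the ratio for counting error only and leave out the spread between replicates.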
